A study of Mus musculus with 9 samples.

Results

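Vesicle traffic genes were compared between the kidneys of young and old wild-type mice. They were taken by symbol and comprised the Rab GTPases with the regulators, effectors and antisense RNAs named after them, the sorting nexins (Snx), the Vps genes, the Arf GTPases 1 to 6, the coatomer subunits (Cop), the Sec genes, the p24 cargo receptors (Tmed) and Rer1. The rule gave 173 of the 13081 genes in the table. All 173 passed the filter on low values, which asked for 10 or more normalised counts in 4 or more libraries, with means over the 9 libraries from 9.99 to 1983 normalised counts. By family there were 48 Rab GTPases, 10 Rab regulators and effectors, 2 Rab antisense RNAs, 29 sorting nexins, 35 Vps genes, 6 Arf GTPases, 8 coatomer subunits, 24 Sec genes and 11 genes of the p24 family with Rer1. A symbol is not a function, and Vps72, which matches the rule, encodes a subunit of chromatin complexes.

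Whole kidneys were profiled at 3 months (young, n = 4 libraries) and at 16 months (old, n = 5), and every library was labelled wild type with no treatment other than age. The study names C57BL/6 as the strain, and the labels give no sex. Libraries were read from the 3′ end of polyadenylated RNA, and the deposited values are reads per gene divided by a size factor for each library (normalised counts). The table held 5093029 to 6355095 reads per young library and 4486406 to 5794960 per old library, and the floor of 3 reads equalled 2.46 to 2.94 normalised counts in young and 2.80 to 3.54 in old libraries. These limits cover counting error only. Library titles carry a different prefix at each age, so age and any difference in preparation between the prefixes cannot be told apart. Where libraries did not come from separate mice, the p-values measure technical spread, and the labels do not say whether they did.

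Proteins bound for the cell surface, lysosomes or secretion enter the endoplasmic reticulum (ER) through the Sec61 channel and leave it in vesicles coated with COPII. Vesicles coated with COPI carry residents of the ER back from the Golgi. Arf and Rab proteins are small GTPases that mark each membrane and recruit its coats, tethers and motors. At endosomes, sorting nexins and the retromer send receptors back to the surface or the Golgi, and the Vps complexes carry the remainder to lysosomes. In the kidney the proximal tubule depends on this route, since it takes up filtered proteins through the receptors megalin and cubilin and recycles those receptors at a high rate.

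The promoters of 5 members are shown because they share short motifs, although the genes themselves did not change in a single direction. RefSeq promoters on GRCm38.p6, which run from 250 bases before to 50 bases after a start site, matched 137 of the 173 members. The motif TGACGTGG resembles the element bound by factors of the ER stress response. It stood in the promoters of 6 members, or 4.38% of those matched, against 1.02% of the 9620 tested genes with a promoter. Of these 6, the coatomer genes Copb1 and Copb2 were higher in old kidneys, Arf1 and the COPII gene Sec23a were lower, and Sec16b and Sec24d did not pass the test. The motif TCACGTGA is the core of the element bound by the lysosomal regulator Tfeb and its relatives. It stood in 8 members (5.84% against 2.26% of all), of which Vps33a and Sec23ip were higher, Vps26a and Sec62 were lower and Rab5a, Rab21, Rab24 and Vps16 did not pass. The call of Sec23ip (0.41 ± 0.16, adjusted p = 0.0373) was lost with the length trend removed (0.31, adjusted p = 0.111). The shorter CACGTG, which lies within TCACGTGA but not within TGACGTGG, stood in 22 members (16.1% against 12% of all). Both strands were searched, the motifs were chosen after the values had been seen, and a match describes letters and not binding. The promoters below are written 5′ to 3′ on the strand of the gene, with the motif or its reverse complement in capitals. In Copb1 the capitals begin 28 bases before the start site, in Copb2 7 bases before it and in Sec23a 6 bases after it. In Sec62 they begin 33 bases before it, and in Vps33a the first of 2 matches begins 29 bases before it.
Copb1, chr7:114254631-114254930 (minus strand): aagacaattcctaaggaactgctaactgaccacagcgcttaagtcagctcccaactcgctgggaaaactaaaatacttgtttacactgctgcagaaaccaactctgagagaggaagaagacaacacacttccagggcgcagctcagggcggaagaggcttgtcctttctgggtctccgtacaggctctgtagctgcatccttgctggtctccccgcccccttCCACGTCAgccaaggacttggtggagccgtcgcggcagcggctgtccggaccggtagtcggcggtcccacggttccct
Copb2, chr9:98563481-98563780 (plus strand): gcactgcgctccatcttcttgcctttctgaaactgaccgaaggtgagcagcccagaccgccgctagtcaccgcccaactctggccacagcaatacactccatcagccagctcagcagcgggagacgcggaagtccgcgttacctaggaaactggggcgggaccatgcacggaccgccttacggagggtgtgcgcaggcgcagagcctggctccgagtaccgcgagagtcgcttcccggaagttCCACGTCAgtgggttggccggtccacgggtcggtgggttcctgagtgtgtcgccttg
Sec23a, chr12:59011968-59012267 (minus strand): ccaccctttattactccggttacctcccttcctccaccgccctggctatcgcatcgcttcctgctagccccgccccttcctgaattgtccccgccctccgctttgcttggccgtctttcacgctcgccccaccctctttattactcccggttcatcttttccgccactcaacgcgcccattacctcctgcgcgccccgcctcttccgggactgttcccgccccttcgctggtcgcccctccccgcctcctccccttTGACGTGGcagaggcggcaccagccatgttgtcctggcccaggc
Sec62, chr3:30792626-30792925 (plus strand): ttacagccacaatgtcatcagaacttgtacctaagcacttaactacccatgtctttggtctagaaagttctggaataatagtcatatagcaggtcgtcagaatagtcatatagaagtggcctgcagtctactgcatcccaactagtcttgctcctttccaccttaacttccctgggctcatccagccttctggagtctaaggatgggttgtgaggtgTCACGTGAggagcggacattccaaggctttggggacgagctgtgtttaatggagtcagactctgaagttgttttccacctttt
Vps33a, chr5:123572966-123573265 (minus strand): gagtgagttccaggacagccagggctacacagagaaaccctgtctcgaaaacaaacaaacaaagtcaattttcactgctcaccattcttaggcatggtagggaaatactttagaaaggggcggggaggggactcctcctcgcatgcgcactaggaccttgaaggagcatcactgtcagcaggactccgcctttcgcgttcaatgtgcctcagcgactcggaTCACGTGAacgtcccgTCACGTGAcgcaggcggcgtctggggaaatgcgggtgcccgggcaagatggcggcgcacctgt

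Of the 173 members, 110 (63.6%) passed the limma test at an adjusted p-value under 0.05, against 59.7% of all 12667 genes tested. With edgeR 111 were called, against 60.4% of all genes, and with DESeq2 110, against 59.5%. In the limma test there were 47 that were higher in old kidneys (29.2% of all genes were) and 63 that were lower (30.5% of all genes). The groups did not overlap in 93 members, against 49% of all genes, and changes of at least 2-fold were called in 11 higher members (9.93% of all genes) and 31 lower members (13.9% of all genes). The share of members called lay near that of all genes and is not in itself a result about these genes. The median log2 fold change, old against young, was -0.15 over the members and -0.0027 over all genes. The split depended on the scaling. Mitochondrial transcripts took 27.0 to 29.7% of the reads in young and 35.8 to 38.1% in old libraries. With mitochondrial genes left out and the remainder scaled to equal library totals, the median over all genes moved to 0.13. In that fit 58 members were higher and 51 lower, against 4472 higher and 3173 lower of 12633 genes. It also replaces the deposited size factors, and the part of each change in the shift was not tested. In whole tissue, fewer cells of a type and less RNA per cell cannot be told apart. In 43 of the 110 called members (39.1%) the old library closest to the young group was old replicate 2. Without that library 114 members were called, 51 higher and 63 lower, against 60.2% of all genes. In 46 (41.8%) the young library closest to the old group was young replicate 4.

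The families differed in direction. Sec genes were mostly lower in old kidneys, with 18 of 24 called, 16 of them lower, and a median log2 fold change of -0.72. Of the p24 family with Rer1, 6 of 11 were called and all 6 were lower (median -0.55). Coatomer went the other way, with 7 of 8 called, 5 of them higher, and a median of 0.52. The remaining families were divided. Among Rab GTPases 27 of 48 were called (11 higher, 16 lower, median 0.047), among Rab regulators and effectors 7 of 10 (4 higher, 3 lower, median 0.12), among sorting nexins 19 of 29 (11 higher, 8 lower, median 0.048) and among Vps genes 20 of 35 (12 higher, 8 lower, median 0.071). Of the 2 antisense RNAs, Rab10os was lower (-0.69 ± 0.19, adjusted p = 0.00411) and Rab26os was not called. Of the 6 Arf GTPases 5 were called, 2 higher and 3 lower (median -0.26). With mitochondrial genes left out the medians were -0.58 for Sec, -0.42 for the p24 family with Rer1 and 0.66 for coatomer, so the order of these families was kept. The called coatomer genes were then 5 higher and 0 lower, the p24 calls 1 higher and 5 lower, the Rab GTPase calls 15 higher and 13 lower, the Arf calls 2 higher and 2 lower and those of Rab regulators and effectors 5 higher and 2 lower. With the length trend removed the Rab GTPase calls were 15 higher and 14 lower and the Arf calls 2 higher and 2 lower. Those of Rab regulators and effectors were then 3 higher and 5 lower, and their median turned to -0.091. Among genes that averaged 100 or more the medians were -1.21 for the p24 family with Rer1, 0.82 for coatomer and -0.08525 for Rab GTPases. Differences between families were described and not tested, since members are not replicates.

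**Figure D1:**
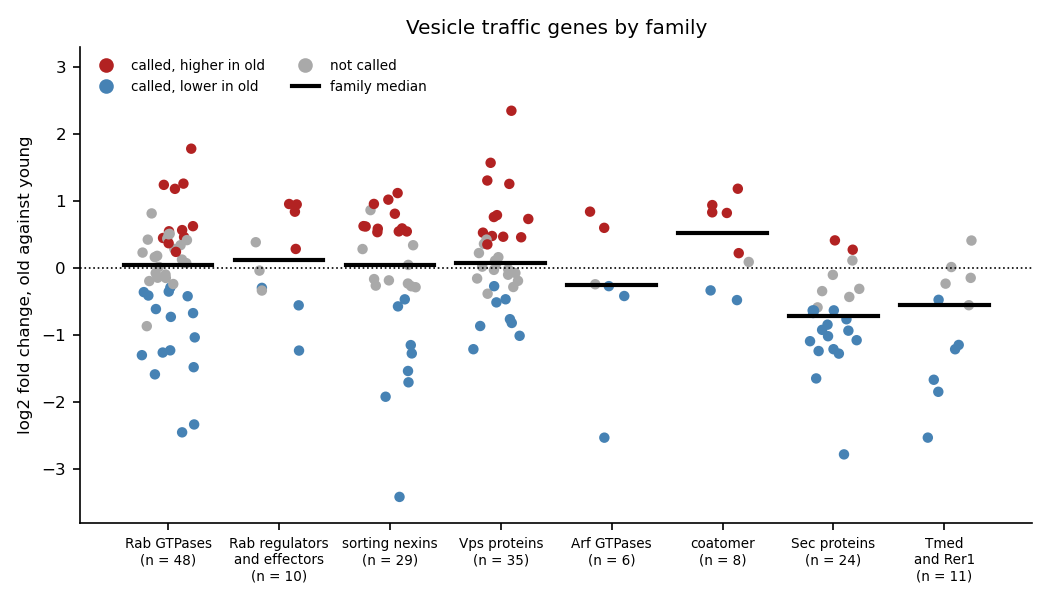
Log2 fold change, old against young kidneys, of the 171 protein-coding vesicle traffic genes (points) by family, with family medians (bars) and the median of all genes tested (dotted line). The Sec and p24 medians lie at -0.72 and -0.55 and the coatomer median at 0.52, while the other protein families lie between -0.26 and 0.12.

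The summed level of each route gives the size of these shifts. Normalised counts of the 24 Sec genes added up to 6308, 6389, 6228 and 6027 in the young libraries and 3414, 3855, 3579, 3318 and 3781 in the old libraries. Those of the p24 family with Rer1 added up to 4062, 3939, 4015 and 4126 in the young libraries and 2161, 2186, 2187, 2059.6 and 2125 in the old libraries, and those of the 8 coatomer genes to 2038, 1997, 1990.3 and 2145 in the young libraries and 2744, 2626, 2484, 2712 and 2629 in the old libraries. In none of these 3 sums did the ages overlap. The sum of the 48 Rab GTPases moved less, with 12114, 12179.6, 12240.1 and 12033 in the young libraries and 13180.2, 12937, 12456, 13262 and 12416 in the old libraries, also without overlap, although single Rab genes were called with changes from -2.45 to 1.78. Rab14 alone rose by more than this sum did, so the other Rab GTPases added together were lower in old kidneys.

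Genes for entry into the ER were mostly lower in old kidneys. Of the 6 genes of the Sec61 channel and its partners 5 were lower and 1 was not called, and their sum was 3501, 3268, 3332 and 3226 in the young libraries and 1597, 1745, 1624, 1447 and 1745 in the old libraries. Sec61b, which encodes the beta subunit of the channel, had 822, 774, 778 and 761 normalised counts in the young and 257, 340.2, 256, 199 and 219 in the old libraries. This gave a log2 fold change of -1.65 ± 0.13, adjusted p = 3.73e-09. All old libraries lay below all young ones. The gamma subunit Sec61g had 425, 435, 461 and 380.2 normalised counts in the young and 242, 225, 218, 239 and 258 in the old libraries. Its fitted change was -0.84 ± 0.10, adjusted p = 1.08e-06. The pore subunit Sec61a1 had 552, 515, 526 and 553 normalised counts in the young and 381, 349, 349, 289 and 368 in the old libraries. On the log2 scale the change was -0.63 ± 0.10, adjusted p = 2.79e-05. Its minor form Sec61a2 had 18.5 to 38.9 in young and 12.7 to 24.8 in old libraries, where the groups overlapped (-0.76 ± 0.29, adjusted p = 0.0288). Its call was lost with mitochondrial genes left out (-0.63, adjusted p = 0.0743) and with the length trend removed (-0.57, adjusted p = 0.0984). Sec62 and Sec63 help proteins that engage the channel after or during their synthesis, and they parted. Sec62 had 1484, 1358, 1362 and 1324 normalised counts in the young and 517, 652, 600.4, 499 and 678 in the old libraries. The fitted log2 change was -1.24 ± 0.10, adjusted p = 1.02e-08. Sec63 had 166 to 184 in young and 159 to 210.0 in old libraries and was not called, with a log2 fold change of 0.11 ± 0.12, adjusted p = 0.426 and a 95% interval of -0.14 to 0.36. Both catalytic subunits of signal peptidase, which trims the leader peptide once a protein is inside, were lower, Sec11a with 357 to 526 in young and 127 to 283 in old libraries (-1.28 ± 0.18, adjusted p = 5.10e-06) and Sec11c with 145 to 200.0 in young and 53.0 to 109 in old libraries (-1.08 ± 0.19, adjusted p = 9.14e-05). Reads of Sec61b and Sec61g are less certain than the others, since 20.2% of the 50-base stretches in the last 500 bases of Sec61b and 20.6% of those of Sec61g also occur in another annotated gene. For Sec11a the share was 6.16%.

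The COPII coat buds cargo from the ER. Of its 8 genes 5 were lower and 1 was higher in old kidneys. Sec13, a subunit of the outer layer that is shared with the nuclear pore and with the GATOR2 complex upstream of mTORC1, had the largest fall, with 181, 179.8, 189 and 196 normalised counts in the young and 28.3, 41.6, 31.4, 26.1 and 12.7 in the old libraries. Every old library lay below every young one, with old replicate 2 the highest of the old ones, and the log2 fold change was -2.78 ± 0.24, adjusted p = 1.45e-08. Sec31a, the partner of Sec13 in the outer layer, had 534, 572, 541 and 523 normalised counts in the young and 633, 634, 604, 699.6 and 717 in the old libraries. Old differed from young by a log2 fold change of 0.27 ± 0.09, adjusted p = 0.0144, with no overlap. In the inner layer, Sec23a had 117, 142, 108 and 138 normalised counts in the young and 60.1, 72.2, 66.9, 55.0 and 76.4 in the old libraries. The change amounted to -0.92 ± 0.15, adjusted p = 3.90e-05. Sec23b behaved alike (135 to 182 in young and 65.6 to 101 in old libraries, -0.93 ± 0.15, adjusted p = 4.13e-05), and the share of Sec23a in the normalised counts of the pair was 44.8 ± 1.38% (SD, n = 4) in young and 45.0 ± 4.39% (SD, n = 5) in old kidneys. Of the cargo-binding Sec24 genes, Sec24c (-1.02 ± 0.15, adjusted p = 1.36e-05) and Sec24a (-0.63 ± 0.17, adjusted p = 0.00387) were lower, and Sec24b (-0.31 ± 0.23, adjusted p = 0.248) and Sec24d (-0.34 ± 0.22, adjusted p = 0.195) were not called. The exit-site scaffold Sec16a was not called (-0.10 ± 0.14, adjusted p = 0.562, and -0.56, adjusted p = 0.00438 with the length trend removed). Sec22b, a SNARE of vesicles between ER and Golgi, had 185 to 215 in young and 109 to 155 in old libraries and was lower (-0.63 ± 0.13, adjusted p = 0.000378).

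A list of 16 COPII partners and Golgi receptors outside the rule went in the same direction, with 11 called, 10 of them lower, and a median of -0.45. Over all genes 59.7% were called and 30.5% were lower. Lower in old kidneys were Kdelr2, a receptor that returns ER residents from the Golgi, with a log2 fold change of -1.80 ± 0.12, adjusted p = 3.21e-10, and Tfg, an organiser of ER exit sites (-1.59 ± 0.13, adjusted p = 8.39e-09). Kdelr3, a relative of Kdelr2, was lower too (-1.65 ± 0.51, adjusted p = 0.00911), but old replicates 4 and 5 had 0.933 and 2.12 normalised counts of it, below the floor of 3 reads, so the size of its fall is uncertain. The exception was Mia2, an exit-site receptor for large cargo, which was higher (0.30). Of the 16, with mitochondrial genes left out, 3 were higher and 9 lower, and with the length trend removed 4 were higher and 11 lower.

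The p24 proteins are membrane receptors that cycle between ER and Golgi and carry cargo with lipid anchors. Of 10 genes 5 were lower and 5 were not called, and the changes ranged from -2.53 to 0.41. Tmed7 had 373, 441, 363 and 422 normalised counts in the young and 63.6, 80.9, 65.9, 69.0 and 62.6 in the old libraries. The difference on the log2 scale was -2.53 ± 0.12, adjusted p = 9.38e-12. In Tmed7 33.3% of the 50-base stretches near the 3′ end are shared with the neighbouring gene Ticam2, so its reads may be divided. Tmed4 (332 to 376 in young and 92.3 to 144 in old libraries) changed by -1.67 ± 0.14, adjusted p = 1.00e-08, Tmed2 (732 to 821 in young and 281 to 429.6 in old libraries, 27.9% shared) by -1.21 ± 0.11, adjusted p = 4.55e-08, and Tmed9 (429 to 531 in young and 182 to 287 in old libraries) by -1.15 ± 0.12, adjusted p = 2.83e-07. None of these overlapped between ages. Tmed10 had 841, 769, 805 and 790.3 normalised counts in the young and 909, 836, 822, 773 and 720.3 in the old libraries. Its groups overlapped, with a log2 fold change of 0.016 ± 0.09, adjusted p = 0.893 and a 95% interval of -0.18 to 0.21. Rer1, which fetches ER membrane proteins back from the Golgi, had 806, 797, 766 and 769 normalised counts in the young and 231, 232, 192, 217 and 217 in the old libraries. The log2 fold change was -1.85 ± 0.10, adjusted p = 1.90e-11, with no overlap.

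**Figure D2:**
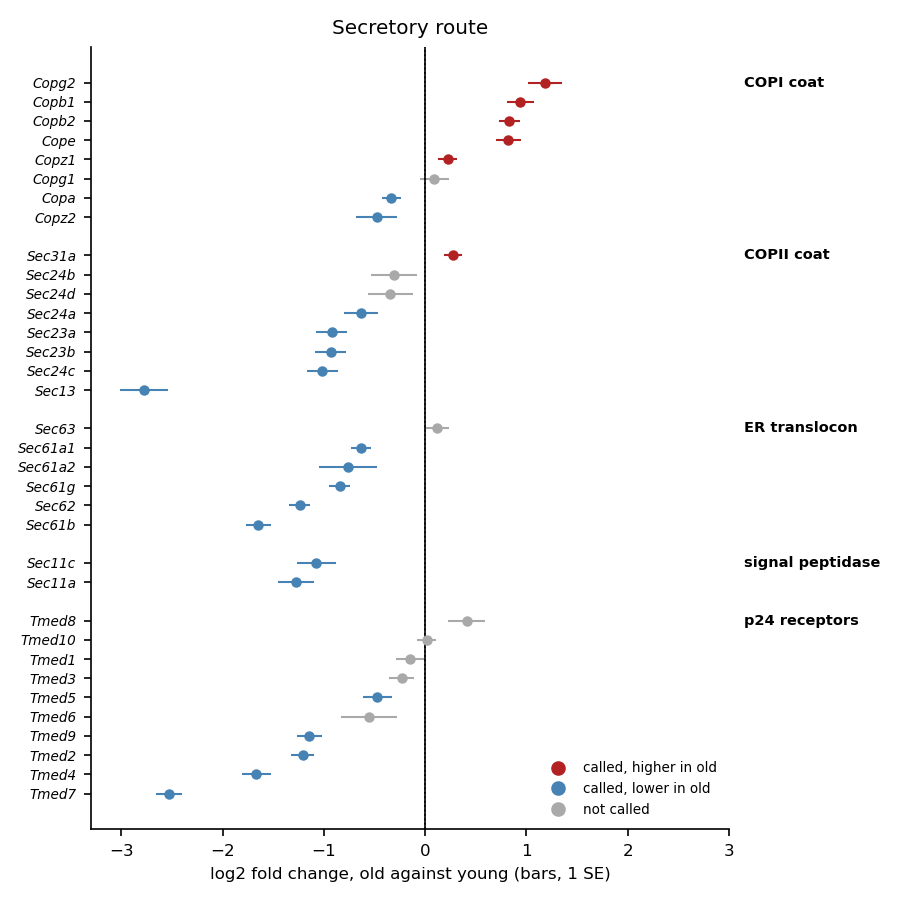
Log2 fold change, old against young kidneys, with 1 SE, of the genes of the COPI coat, the COPII coat, the ER translocon, signal peptidase and the p24 receptors. COPI has 5 of 8 genes called higher, whereas the COPII coat has 5 of 8 called lower, and no translocon, signal peptidase or p24 gene was called higher. In the p24 group 1 gene was called higher with mitochondrial genes left out, as was 1 without old replicate 2.

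COPI, the coat of return traffic from the Golgi, was higher in 5 of its 8 genes. Copg2, a gamma subunit, had 69.6, 48.6, 52.9 and 76.0 normalised counts in the young and 153, 128, 158, 111 and 153 in the old libraries. This gave a log2 fold change of 1.18 ± 0.16, adjusted p = 5.71e-06. The beta subunit Copb1 had 152, 129, 119 and 130.4 normalised counts in the young and 206, 238, 301, 239.7 and 300.2 in the old libraries. Its fitted change was 0.94 ± 0.13, adjusted p = 6.69e-06. Copb2, the beta prime subunit, had 216, 184, 164 and 186 normalised counts in the young and 344, 326, 353, 327 and 316 in the old libraries. On the log2 scale the change was 0.83 ± 0.11, adjusted p = 2.37e-06. In these 3 genes every old library lay above every young one, as in Cope, the epsilon subunit, which had 370.2, 326, 357 and 424 normalised counts in the young and 780.3, 620.2, 508, 733 and 647 in the old libraries (0.82 ± 0.12, adjusted p = 1.09e-05). Not all subunits followed. Copa, the alpha subunit, had 560.2, 585, 576 and 540.5 normalised counts in the young and 427, 452, 423, 464 and 479 in the old libraries and was lower (-0.33 ± 0.09, adjusted p = 0.00379), a call that was lost with mitochondrial genes left out (log2 fold change -0.19, adjusted p = 0.0657). Copg1, the other gamma subunit, had 156 to 210.0 in young and 157 to 264 in old libraries and was not called (0.091 ± 0.15, adjusted p = 0.612), and its share of the normalised counts of the gamma pair went from 74.5 ± 4.21% (SD, n = 4) to 57.6 ± 7.95% (SD, n = 5). The zeta subunits Copz1 (464 to 495 in young and 508 to 618 in old libraries, 0.22 ± 0.09, adjusted p = 0.0444) and Copz2 (48.3 to 82.4 in young and 33.9 to 59.1 in old libraries, -0.48 ± 0.20, adjusted p = 0.0495) were called in opposite directions, and both calls were lost without single libraries. For Copz1 the adjusted p was 0.101 without young replicate 1, 0.0915 without young replicate 2, 0.0890 without young replicate 3, 0.0567 without young replicate 4, 0.104 without old replicate 1 and 0.0797 without old replicate 4. For Copz2 the adjusted p was 0.0973 without young replicate 2, 0.138 without young replicate 3, 0.153 without young replicate 4, 0.0719 without old replicate 1, 0.0641 without old replicate 4 and 0.123 without old replicate 5. The call of Copz2 was lost too with a pseudocount of 0.1 (adjusted p = 0.0506), with mitochondrial genes left out (-0.34, adjusted p = 0.173) and with the length trend removed (-0.089, adjusted p = 0.723). The delta subunit is encoded by a gene whose symbol the rule does not take.

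Arf GTPases recruit COPI and the adaptors of the Golgi. Arf4 fell the most, with 459, 498, 469.6 and 451 normalised counts in the young and 73.1, 96.3, 77.1, 74.6 and 82.7 in the old libraries. The fitted log2 change was -2.53 ± 0.12, adjusted p = 4.73e-12. Arf5, the other member of its class, went up, with 473, 362, 467 and 594 normalised counts in the young and 792, 630.1, 691, 1041 and 1151 in the old libraries (0.84 ± 0.16, adjusted p = 0.000205). Arf1, which recruits COPI at the Golgi, had 1429.9, 1539, 1625 and 1621 normalised counts in the young and 1274, 1282, 1239, 1048 and 1000.4 in the old libraries. Old differed from young by a log2 fold change of -0.42 ± 0.10, adjusted p = 0.00128, without overlap. Arf1 was not called once the trend with transcript length was removed (-0.17, adjusted p = 0.135). Arf2 had 65.5, 48.6, 62.7 and 67.9 normalised counts in the young and 86.0, 86.4, 92.3, 103 and 96.5 in the old libraries and was higher (0.60 ± 0.15, adjusted p = 0.00227). Arf3 (351 to 421 in young and 266 to 364 in old libraries, -0.27 ± 0.11, adjusted p = 0.0485) and Arf6, which acts at the plasma membrane (158 to 193 in young and 122 to 184 in old libraries, -0.24 ± 0.14, adjusted p = 0.150), overlapped between ages. The call of Arf3 was lost with edgeR (adjusted p = 0.0548), with DESeq2 (adjusted p = 0.0562) and with mitochondrial genes left out (-0.13, adjusted p = 0.330). It was also lost without some single libraries. For Arf3 the adjusted p was 0.122 without young replicate 1, 0.133 without young replicate 2, 0.0749 without young replicate 4, 0.132 without old replicate 1 and 0.0930 without old replicate 3.

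Rab GTPases of the ER and Golgi were mostly lower, with 4 of 7 lower and 1 higher. With mitochondrial genes left out 4 were lower and 2 higher. Rab1a, which tethers vesicles from the ER to the Golgi, had 685, 776, 745 and 656 normalised counts in the young and 301, 288, 285, 303 and 273 in the old libraries. The change amounted to -1.30 ± 0.09, adjusted p = 1.62e-09. Its close paralogue Rab1b had 289.9, 255, 293 and 342 normalised counts in the young and 529, 485, 398, 392 and 390.4 in the old libraries and rose (0.57 ± 0.12, adjusted p = 0.000477). In the normalised counts of the pair, the share of Rab1a was 70.8 ± 3.97% (SD, n = 4) in young and 40.0 ± 3.13% (SD, n = 5) in old kidneys, and the sum itself went from 1011 ± 29.3 (SD) to 729 ± 70.2 (SD) normalised counts. Rab18, found on the ER and lipid droplets, had 317 to 386 in young and 186 to 240.3 in old libraries and was lower (-0.73 ± 0.11, adjusted p = 1.27e-05). So were Rab2a (571 to 738 in young and 394 to 488 in old libraries, -0.61 ± 0.10, adjusted p = 5.48e-05) and Rab6a of the Golgi (560.4 to 670.4 in young and 419 to 555 in old libraries, -0.42 ± 0.11, adjusted p = 0.00208).

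Early and recycling endosomes gave 12 Rab genes, of which 3 were higher, 3 were lower and 6 were not called. This split was 4 higher and 2 lower with mitochondrial genes left out, and 5 higher and 2 lower with the length trend removed. Rab14, which acts between the Golgi and early endosomes, was higher, with 1109.7, 1157, 1109.9 and 1127 normalised counts in the young and 2621, 2624, 2540.4, 2886 and 2667 in the old libraries. The difference on the log2 scale was 1.24 ± 0.08, adjusted p = 4.85e-10. The ages were far from overlapping. Rab11a and Rab11b, the GTPases of the recycling endosome, were both lower. Rab11a had 486, 571, 473 and 499.7 normalised counts in the young and 286, 405, 362, 304 and 251 in the old libraries (-0.67 ± 0.13, adjusted p = 0.000164), and Rab11b had 539, 551, 535 and 503 normalised counts in the young and 426, 358, 331, 487 and 419 in the old libraries (-0.41 ± 0.11, adjusted p = 0.00395, 18.6% of its 3′ stretches shared). Of the 5 Rab11 effectors of the Rab11fip family, 3 were higher and 1 was lower. Rab11fip3 had 1143, 1055, 1192 and 1109 normalised counts in the young and 2333, 1772, 1792, 2548 and 2622 in the old libraries. The log2 fold change was 0.96 ± 0.12, adjusted p = 1.34e-06. Rab11fip2 changed by 0.95 ± 0.16, adjusted p = 3.83e-05 and Rab11fip4 by 0.84 ± 0.14, adjusted p = 4.85e-05, while Rab11fip5 was lower (-0.30 ± 0.11, adjusted p = 0.0260, and -0.15, adjusted p = 0.227 with mitochondrial genes left out) and Rab11fip1 was not called (-0.038 ± 0.19, adjusted p = 0.878) but was lower with the length trend removed (-0.45, adjusted p = 0.0459).

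Rab5, the GTPase of early endosomes, is encoded by 3 genes that did not move together. Rab5c had 1406, 1212, 1258 and 1345 normalised counts in the young and 1630.1, 1371, 1412, 1671 and 1652 in the old libraries, with overlap (0.24 ± 0.09, adjusted p = 0.0324). Rab5b had 315 to 386 in young and 230.2 to 335 in old libraries and was lower (-0.36 ± 0.12, adjusted p = 0.0137), a call lost with mitochondrial genes left out (-0.22, adjusted p = 0.139) and with the length trend removed (-0.27, adjusted p = 0.0526). Rab5a was not called (-0.15 ± 0.14, adjusted p = 0.383). For Rab5c the adjusted p was 0.106 without young replicate 2, 0.0871 without young replicate 3, 0.0693 without old replicate 1, 0.0735 without old replicate 4 and 0.0609 without old replicate 5. Of the others, Rab22a of recycling tubules had 153 to 213 in young and 226 to 281 in old libraries and was higher (0.46 ± 0.12, adjusted p = 0.00254, and 0.11, adjusted p = 0.463 with the length trend removed), and Rab4a (0.23 ± 0.18, adjusted p = 0.267, and 0.56, adjusted p = 0.00923 with the length trend removed), Rab21 (0.019 ± 0.10, adjusted p = 0.883) and Rab35 (-0.075 ± 0.15, adjusted p = 0.686) were not called. Rab25, an epithelial relative of Rab11, had 51.5 to 81.5 in young and 62.4 to 121 in old libraries and was not called (0.43 ± 0.19, adjusted p = 0.0646). It was called higher with mitochondrial genes left out (0.57, adjusted p = 0.0205), with the length trend removed (0.81, adjusted p = 0.00191) and with edgeR (adjusted p = 0.0469), and without some single libraries. For Rab25 the adjusted p was 0.0342 without young replicate 4, 0.0173 without old replicate 2 and 0.0472 without old replicate 5.

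In the late endosome and lysosome-related class 4 of 7 Rab genes were lower and 3 were not called. With mitochondrial genes left out 2 of these 3, Rab7 and Rab27b, were called higher. Rab9, which returns cargo from late endosomes to the Golgi, had 136, 138, 109 and 87.8 normalised counts in the young and 30.6, 20.8, 19.3, 14.0 and 20.2 in the old libraries. This gave a log2 fold change of -2.45 ± 0.22, adjusted p = 2.87e-08. Rab38 and Rab32, sister GTPases of lysosome-related organelles, were also lower. Rab38 had 61.4, 69.0, 63.7 and 41.6 normalised counts in the young and 17.7, 16.4, 7.10, 10.3 and 6.36 in the old libraries (-2.33 ± 0.30, adjusted p = 2.62e-06), and Rab32 had 48.0 to 74.8 in young and 14.9 to 35.0 in old libraries (-1.48 ± 0.25, adjusted p = 4.93e-05). Rab27a, which brings such organelles to the plasma membrane, had 60.2 to 90.5 in young and 18.7 to 41.6 in old libraries (-1.26 ± 0.24, adjusted p = 0.000153). Rab7, the principal GTPase of late endosomes, was not called, with 889, 836, 817 and 876 normalised counts in the young and 1108, 1068, 848, 989.7 and 807 in the old libraries, overlapping groups and a log2 fold change of 0.16 ± 0.10, adjusted p = 0.181. It was called higher with mitochondrial genes left out (0.31, adjusted p = 0.0147) and with the length trend removed (0.40, adjusted p = 0.00191).

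Among the Rab genes of exocytosis and cilia, Rab3d of secretory granules was higher (35.0 to 41.8 in young and 61.3 to 114 in old libraries, 1.18 ± 0.18, adjusted p = 2.02e-05), as was Rab8a (513 to 674 in young and 666 to 839.5 in old libraries, 0.37 ± 0.10, adjusted p = 0.00413). Rab10 was lower, with 1018 to 1088 in young and 676 to 929.8 in old libraries (-0.35 ± 0.10, adjusted p = 0.00578), though not with mitochondrial genes left out (-0.21, adjusted p = 0.102). Rab28, a GTPase of cilia, had 119.6, 154, 138 and 128 normalised counts in the young and 36.5, 65.6, 56.8, 41.0 and 29.7 in the old libraries. Its fitted change was -1.59 ± 0.20, adjusted p = 2.14e-06. Rab40c, which forms part of a ubiquitin ligase, had 40.1, 52.5, 44.1 and 32.6 normalised counts in the young and 95.5, 94.1, 94.3, 132 and 95.5 in the old libraries. On the log2 scale the change was 1.26 ± 0.17, adjusted p = 5.29e-06. The largest rise of a Rab gene was in Rab43 (6.34 to 17.6 in young and 30.6 to 60.6 in old libraries, 1.78 ± 0.29, adjusted p = 3.63e-05), but 73.1% of its 3′ stretches are shared with the gene Gm45140, so its reads are uncertain. Rab20 was lower (-1.23 ± 0.24, adjusted p = 0.000275) and Rab12 was higher (0.63 ± 0.12, adjusted p = 0.000188). Outside the GTPases, Rab3ip, the exchange factor for Rab8, had 862 to 953 in young and 569 to 651 in old libraries and was lower (-0.56 ± 0.09, adjusted p = 2.83e-05), and Rab5if had 835 to 1056 in young and 295 to 552 in old libraries (-1.23 ± 0.15, adjusted p = 1.32e-06).

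Sorting nexins bind endosomal lipids and shape or load transport carriers. The largest change of any vesicle traffic gene was in Snx3, which sorts cargo with the retromer. Snx3 (chromosome 10, 42502030 to 42535381, GRCm38) had 952, 1121, 1102 and 1018 normalised counts in the young and 89.6, 142, 90.3, 87.7 and 85.9 in the old libraries. The fitted log2 change was -3.41 ± 0.14, adjusted p = 6.92e-13. Its close relative Snx12 had 112 to 148 in young and 136 to 197 in old libraries and was not called (0.28 ± 0.13, adjusted p = 0.0739). It was called higher with mitochondrial genes left out (0.43, adjusted p = 0.00973) and with the length trend removed (0.49, adjusted p = 0.00464). For Snx12 the adjusted p was 0.0312 without old replicate 2. Snx15 was lower too (61.4 to 84.5 in young and 13.0 to 36.1 in old libraries, -1.70 ± 0.25, adjusted p = 9.54e-06). Snx18, which bends membrane during endocytosis and autophagy, rose with 165, 173, 168 and 177 normalised counts in the young and 359.5, 361, 394, 360.1 and 386 in the old libraries (1.12 ± 0.10, adjusted p = 1.94e-08). Snx27, which couples cargo to the retromer, had 271, 274, 275 and 315 normalised counts in the young and 437, 473, 438, 566 and 595 in the old libraries. Old differed from young by a log2 fold change of 0.81 ± 0.11, adjusted p = 6.11e-06, and Snx8 had 332 to 428 in young and 430.0 to 737 in old libraries (0.62 ± 0.14, adjusted p = 0.000780). Snx17, which works with the retriever complex, was not called (-0.16 ± 0.14, adjusted p = 0.337).

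The 4 nexins of the ESCPE-1 coat, which forms dimers of Snx1 or Snx2 with Snx5 or Snx6, were divided. Snx1 had 283, 314, 318 and 326 normalised counts in the young and 167, 121, 160.2, 99.8 and 160.2 in the old libraries. The change amounted to -1.15 ± 0.14, adjusted p = 1.75e-06. Snx6 had 389.8, 297, 353 and 306 normalised counts in the young and 613, 596, 681, 627 and 747 in the old libraries and was higher (0.96 ± 0.11, adjusted p = 4.20e-07), and the alternative partner Snx5 was lower (257 to 319 in young and 195 to 244 in old libraries, -0.47 ± 0.11, adjusted p = 0.00161). Snx2 was not called (-0.29 ± 0.17, adjusted p = 0.148). The sum of the 4 genes was 1085, 957, 1051 and 1011 in the young libraries and 1064, 978, 1156, 1003 and 1179.7 in the old libraries, so the ages overlapped in the total while its make-up differed.

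The retromer core showed the same kind of division. Vps35, its scaffold, had 349, 335, 344 and 338 normalised counts in the young and 479, 393, 452, 561 and 482 in the old libraries and was higher (0.46 ± 0.11, adjusted p = 0.00101). Vps26a had 147, 163, 186 and 139 normalised counts in the young and 104, 101, 111, 112 and 127 in the old libraries and was lower (-0.51 ± 0.13, adjusted p = 0.00254). Its paralogue Vps26b had 76.0 to 93.3 in young and 84.2 to 104 in old libraries and was called only with mitochondrial genes left out (0.37, adjusted p = 0.0262) among the alternatives run, against 0.22 ± 0.14, adjusted p = 0.171 otherwise. Vps29 had 364 to 481 in young and 279 to 423 in old libraries and was not called (-0.28 ± 0.12, adjusted p = 0.0527). It was called lower with TMM factors (adjusted p = 0.0483) and among genes that averaged 100 or more (adjusted p = 0.0484), and without some single libraries. For Vps29 the adjusted p was 0.0415 without young replicate 3 and 0.0130 without old replicate 1. The sum of the 4 was 1056, 988, 979 and 959.6 in the young libraries and 1108, 945, 978, 1092 and 986 in the old libraries, with overlap. Neither of the measured retriever genes, Vps26c (-0.015 ± 0.19, adjusted p = 0.951) and Vps35l (-0.099 ± 0.15, adjusted p = 0.587), was called.

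Of the tethers that fuse endosomes with lysosomes (HOPS and CORVET), 2 of 7 genes were higher and 2 were lower, and with mitochondrial genes left out 3 were higher and 1 was lower. Vps41, found in HOPS, had 114, 81.6, 79.4 and 85.1 normalised counts in the young and 184, 200.2, 223, 272 and 239.7 in the old libraries. The difference on the log2 scale was 1.31 ± 0.14, adjusted p = 3.64e-07. Vps33a, a core subunit that guides SNARE pairing, had 73.7, 58.3, 69.6 and 65.2 normalised counts in the young and 164, 123, 139, 184 and 206 in the old libraries (1.26 ± 0.16, adjusted p = 1.65e-06). Vps18, another core subunit, went down, with 72.1, 75.8, 75.5 and 85.1 normalised counts in the young and 34.2, 36.1, 27.4, 28.9 and 38.2 in the old libraries (-1.21 ± 0.18, adjusted p = 1.04e-05), and so did Vps8, found in CORVET (131 to 192 in young and 83.0 to 134 in old libraries, -0.47 ± 0.16, adjusted p = 0.0154, and -0.32, adjusted p = 0.0911 with mitochondrial genes left out). Vps33b, which works in a separate complex, was higher (18.0 to 25.5 in young and 26.4 to 41.4 in old libraries, 0.79 ± 0.23, adjusted p = 0.00590). Vps9d1, which has the domain found in exchange factors of Rab5, was lower (109 to 159 in young and 50.9 to 90.8 in old libraries, -1.01 ± 0.18, adjusted p = 8.44e-05). In the GARP and EARP tethers, which receive carriers at the Golgi and recycling endosomes, 3 of 5 genes were lower and 2 were not called. These were Vps54 (78.7 to 95.1 in young and 35.5 to 60.6 in old libraries, -0.76 ± 0.18, adjusted p = 0.00124), Vps51 (25.3 to 42.8 in young and 11.7 to 20.8 in old libraries, -0.86 ± 0.26, adjusted p = 0.00850, 21.2% of its 3′ stretches shared) and the EARP subunit Vps50 (44.4 to 64.7 in young and 18.0 to 45.6 in old libraries, -0.82 ± 0.27, adjusted p = 0.0131). For Vps50 the adjusted p was 0.0509 without young replicate 1.

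Vps13 proteins are long bridges that move lipid between membranes, and all 4 genes were higher in old kidneys, although Vps13d had the opposite sign once a length trend was removed. Their sum was 332, 300.2, 329 and 311 in the young libraries and 592, 615, 672, 687 and 677 in the old libraries. Vps13c had 19.7, 8.74, 11.8 and 12.7 normalised counts in the young and 69.5, 53.6, 75.0, 72.8 and 75.3 in the old libraries. The log2 fold change was 2.35 ± 0.23, adjusted p = 9.55e-08. Vps13b had 69.6, 68.0, 64.7 and 70.6 normalised counts in the young and 179, 233, 224, 183 and 210.0 in the old libraries (1.57 ± 0.13, adjusted p = 7.43e-09), and Vps13a (102 to 121 in young and 157 to 222 in old libraries) and Vps13d (116 to 132 in young and 154 to 213 in old libraries) changed by 0.76 ± 0.13, adjusted p = 6.10e-05 and 0.53 ± 0.12, adjusted p = 0.00118. These genes have the longest transcripts of the class, 10838 to 15849 bases. After a trend with transcript length had been removed from each library, Vps13c (1.77, adjusted p = 2.99e-06) and Vps13b (0.91, adjusted p = 1.16e-05) were still called, Vps13a was not (0.21, adjusted p = 0.158) and Vps13d had the opposite sign (-0.19, adjusted p = 0.189).

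ESCRT proteins sort receptors into vesicles inside late endosomes. Of the 9 Vps members of this machinery 4 were higher and 1 was lower, with changes from -0.38 to 0.73, and with mitochondrial genes left out 5 were higher and 0 lower. Vps37a of ESCRT-I had 185 to 226 in young and 257 to 327 in old libraries and was higher (0.48 ± 0.11, adjusted p = 0.00116), a call lost after removal of the length trend (0.19, adjusted p = 0.144). The 21 ESCRT genes with other names were split more evenly, with 11 called, 5 higher and 6 lower, from Vta1 (-1.68), a cofactor of the Vps4 ATPase, to Ist1 (1.49), a late ESCRT subunit. Their calls were 7 higher and 5 lower with mitochondrial genes left out, and 7 higher and 6 lower with the length trend removed. In the main fit 59.7% of all genes were called.

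**Figure D3:**
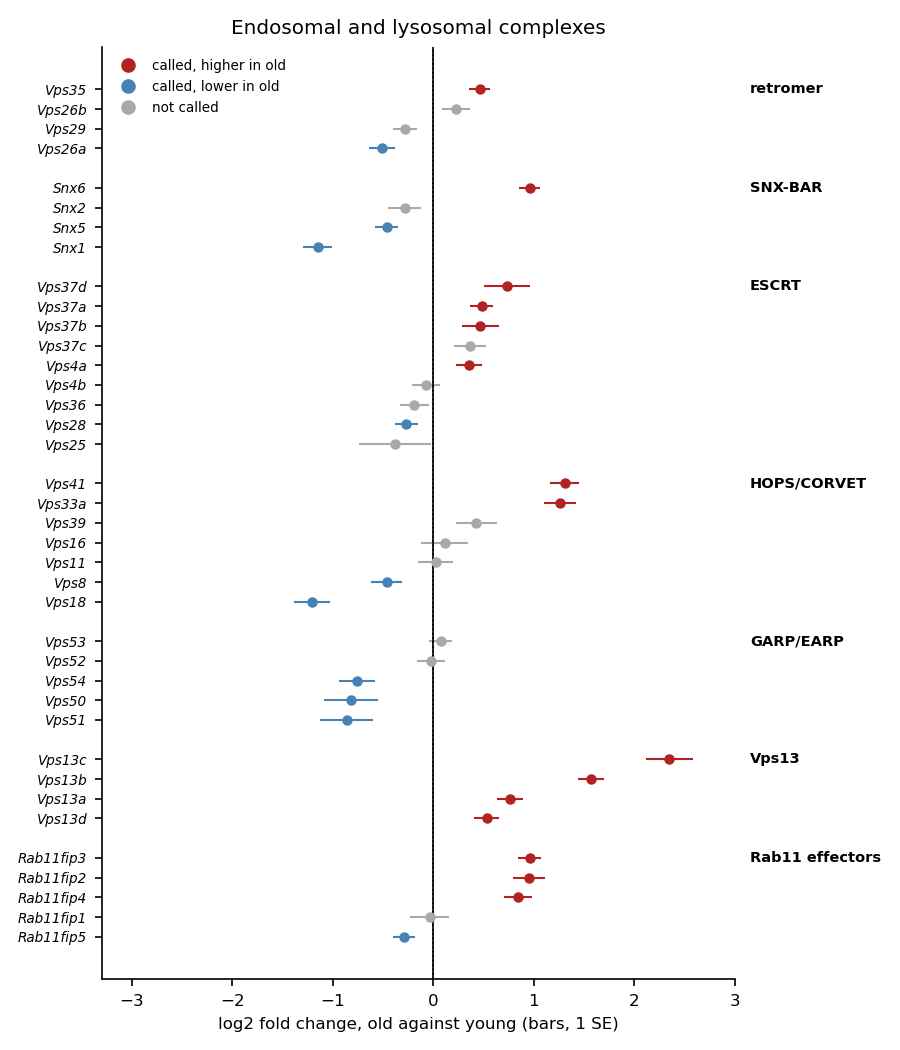
Log2 fold change, old against young kidneys, with 1 SE, of genes of the retromer, the SNX-BAR nexins, ESCRT, HOPS and CORVET, GARP and EARP, the Vps13 family and the Rab11 effectors. Retromer and HOPS hold called genes in both directions, the GARP and EARP calls are all lower, and the 4 Vps13 genes are all higher, of which Vps13d had the opposite sign with the length trend removed.

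Close paralogues that moved apart were looked for in 42 pairs whose genes each averaged 20 or more normalised counts. In 3 pairs both genes were called in opposite directions, namely Rab1a with Rab1b, Rab5b with Rab5c and Copz1 with Copz2. In the last 2 of these the calls of Rab5b and Copz2 were lost with mitochondrial genes left out and with the length trend removed, and those of Rab5c and Copz1 without single libraries. The difference of log2 values within a pair was compared between ages by a two-sided exact permutation test over the libraries. The test has 126 splits and a smallest p of 0.0159, which was reached by Rab1a with Rab1b, and over 42 pairs the lowest adjusted value was 0.0741. At an unadjusted p under 0.05 there were 17 pairs, 9 of them at the smallest p, and with adjustment 0 pairs passed, so the pairs are given as a description.

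Transcript length moved with the results. Members are not independent replicates. Across the 173 of them, fold change and the longest annotated transcript had a rank correlation (Spearman) of 0.247, and across 12575 genes tested the value was 0.275. Among the 44 shortest members (477 to 2159 bases) 8 members were higher and 20 were lower, and among the 43 longest (4604 to 15849 bases) 16 were higher and 10 were lower. The 43 members from 2165 to 3181 bases had 13 higher and 18 lower, and the 43 from 3199 to 4602 bases had 10 higher and 15 lower. With the trend removed the medians were -0.69 for Sec, -0.46 for the p24 family with Rer1 and 0.68 for coatomer. In that setting 47 members were higher and 60 were lower (61.8% called). Of the 12575 genes, 3634 were higher and 3617 lower (57.7% called). RNA integrity was stated once for all libraries, and its part in this relation was not tested.

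**Figure D4:**
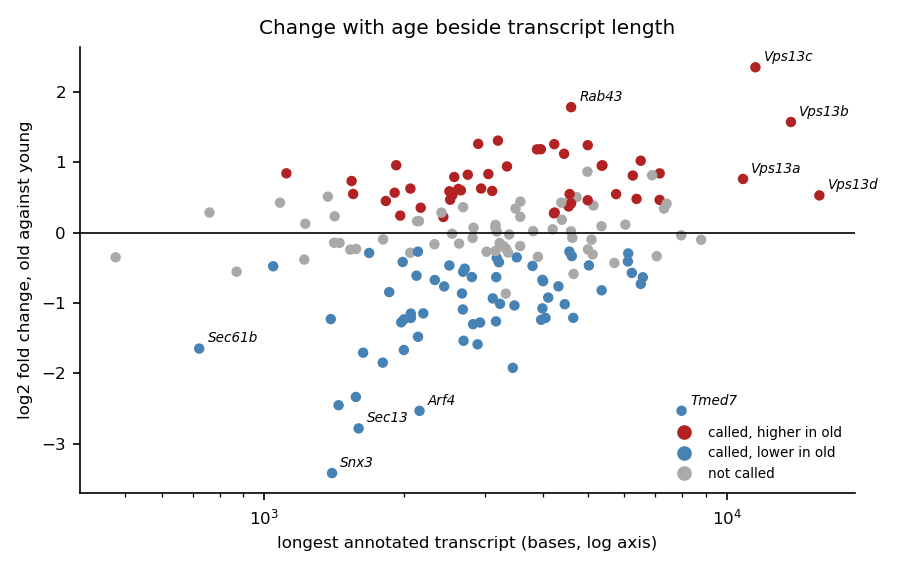
Log2 fold change, old against young kidneys, of the 173 members beside the length of the longest annotated transcript (log axis). Tmed7 stands apart from the other large falls by its length, and the 4 Vps13 genes lie at the long end.

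Genes of the same routes outside the rule were called in both directions. Over all genes tested 59.7% were called. Of 31 SNARE genes tested 17 were called, 7 higher and 10 lower, from Gosr1 (-1.42) to Bet1l (1.57), both of which act at the Golgi. Clathrin and its adaptors had 24 of 32 called, 14 higher and 10 lower, from Ap1s3 (-1.67) to Ap1s2 (1.26), alternative small subunits of the same adaptor. Tethers had 28 of 38 called, 18 higher and 10 lower, from Trappc2 (-2.69) to the exocyst subunit Exoc3 (1.43). Old replicate 1 had 1.18 normalised counts of Trappc2, below the floor of 3 reads, so the size of its fall is uncertain. Regulators of Rab and Arf proteins had 24 of 33 called, 16 higher and 8 lower, with Dennd1a, an exchange factor for Rab35, at -1.38, the Arf exchange factor Cyth3 at 2.25 and Ccz1, part of the exchange factor for Rab7, at 1.87. The Commander and WASH complexes, which act with the retriever, had 9 of 17 called, 4 higher and 5 lower, from Washc3 (-2.89) to Ccdc93 (0.85). With mitochondrial genes left out the SNARE calls were 9 higher and 6 lower and those of Commander and WASH 7 higher and 4 lower. With the length trend removed they were 10 higher and 7 lower for SNARE genes and 4 higher and 4 lower for Commander and WASH, so their balance depends on the scaling. In that setting 17 of the 33 regulators of Rab and Arf proteins were called, 11 higher and 6 lower. Their median was 0.18, against 0.47 in the main fit.

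Markers of the kidney's cell types were measured beside these genes. The 5 proximal tubule markers added up to 28183 to 29084 normalised counts in young and 25136 to 32690 in old libraries, with 1 higher and 3 lower, and among them the endocytic receptors parted, with Lrp2 (megalin) higher (0.95 ± 0.10, adjusted p = 3.45e-07) and Cubn (cubilin) lower (-0.37 ± 0.10, adjusted p = 0.00272). Immune markers went from 840 to 1055 in young to 1128 to 1542 in old libraries (3 of 5 called, all higher), B lineage markers went from 225 to 668 in young to 780 to 2423 in old libraries (both measured genes called higher, Cd79a not in the table) and endothelial markers went from 633 to 720 in young to 873 to 1015 in old libraries (2 of 3 called, both higher). Podocyte markers added up to 467 to 506 in young and 352 to 421 in old libraries (2 higher, 1 lower). The sum for the thick ascending limb was 7092 to 7756 in young and 8152 to 11472 in old libraries (1 of 2 called, higher). For the distal convoluted tubule it was 1993 to 2703 in young and 3887 to 4755 in old libraries, most of it from Slc12a3, which was higher (1.04 ± 0.11, adjusted p = 1.63e-07), while Pvalb was lower (-0.44 ± 0.15, adjusted p = 0.0173). The intercalated cell sum was 432 to 501 in young and 349.9 to 419.6 in old libraries, with Slc4a1 higher (0.63 ± 0.17, adjusted p = 0.00303) and Atp6v1g3 lower (-0.53 ± 0.12, adjusted p = 0.000670). For the principal cell it was 1252 to 1895 in young and 497 to 2487 in old libraries. Its upper end was old replicate 3, with 2267 normalised counts of Aqp2 against 334 to 694 in the other old libraries, and Aqp3 was lower (-1.54 ± 0.14, adjusted p = 3.34e-08). Fibroblast and mesangium markers added up to 281 to 466 in young and 192 to 307 in old libraries (both lower). None of the 3 adrenal markers was in the table. Adipocyte markers ranged from 271 to 1427 in young and from 56.0 to 1033 in old libraries (1 of 3 tested was lower), and single libraries stood apart. Young replicate 2 had 447 normalised counts of Cfd and 40.8 of Adipoq, and old replicate 3 had 285 of Cfd and 189 of Adipoq. In all 102 vesicle traffic genes were called (42 higher, 60 lower) without young replicate 2, and 107 vesicle traffic genes were called (47 higher, 60 lower) without old replicate 3. The share of all genes called was not counted in these fits. The part of these shifts in the changes of vesicle traffic genes was not tested.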

How the data were processed

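RNA from whole kidneys of wild-type mice was measured in 9 libraries, 4 at 3 months and 5 at 16 months, grouped by the age in the labels. Per the labels, 500 ng of RNA with an integrity of 7.4 to 7.6 was converted with a 3′ kit primed by oligo(dT). The study's methods name another version of that kit. The authors aligned single reads with TopHat2 2.0.10 (Bowtie 1.0.0, SAMtools 0.1.19) to GRCm39, counted them by strand with HTSeq 0.6.1 on GENCODE vM26, and deposited a signal that equals the read count of a gene over the size factor of its library. The methods name DESeq and the processing notes DESeq2 for this step. Whole reads were recovered for 100% of values (tolerance 0.01 reads). The lowest mean of any listed gene was 4.49 normalised counts, so genes with fewer reads had been left out, and no source states how.

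The test of old against young was limma 3.58.1 (variance trend, R 4.3.3) on log2(normalised count + 1). It took genes that reached 10 normalised counts in 4 or more libraries. On this scale changes of weakly expressed genes come out too small. P-values were corrected over these 12667 genes (Benjamini-Hochberg), and a gene with an adjusted p-value under 0.05 is called. Values after ± are standard errors of the log2 fold change unless marked as SD. Alternatives were pseudocounts of 0.1 and 5, no filter, a filter on means of 100 or more, TMM factors, mitochondrial genes left out with the remainder rescaled, removal of a transcript length trend, edgeR 4.0.16 (quasi-likelihood) and DESeq2 1.42.0 on recovered reads, and leaving out each library in turn. Where mitochondrial genes were left out, the remaining reads were scaled to equal library totals in place of the size factors. The code was tested on simulated data.

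The members, gene lists, motifs and tests were chosen with earlier results of these data known. Named were the 2 largest rises and 2 largest falls of each family among called genes that averaged 50 or more normalised counts and whose groups do not overlap, all Arf, coatomer and retromer genes and a fixed set of stage markers, 63 in all. Another 32 were added after their values had been seen, and a few more appear only as values beside these. The antisense RNAs were kept apart from the Rab regulators. Positions and transcript lengths are those of GENCODE vM21 (GRCm38, not the build of the authors), matched by symbol for all 173 members. In 15 members over 5% of the 50-base stretches in the last 500 bases occur in another gene, and 47 overlap another gene on the same strand. Replicate numbers follow the order of the libraries and pair nothing across ages.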

Additional observations from a re-analysis of the deposited data

Results flagged for a closer look

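In 190 groups of 4 or 5 libraries, 2 for each of the 95 named members, 1 library stood apart from the others of its age by Dixon's test in 10, where chance at 1 in 20 gives 9.5. The first value for each gene is that library's gap to its neighbour divided by the whole range, both on the log2 scale. In young kidneys, replicate 4 stood apart in Rab2a (0.887, at 571 normalised counts against 717 to 738 in the other young libraries) and in Snx27 (0.916, at 315 against 271 to 275). Replicate 1 stood apart in Rab5b (0.836, at 315 against 373 to 386) and in Sec63 (0.923, at 184 against 166 to 167). Snx5 was low in young replicate 2 (0.895, at 257 against 311 to 319), and Vps33b was high in young replicate 3 (0.846, at 25.5 against 18.0 to 19.0). In old kidneys, replicate 2 stood apart in Snx3 (0.903, at 142 against 85.9 to 90.3) and in Vps13c (0.765, at 53.6 against 69.5 to 75.3), in each case toward the young libraries. Rab40c was high in old replicate 4 (0.957, at 132 against 94.1 to 95.5), and Vps26b was low in old replicate 3 (0.714, at 84.2 against 97.6 to 104). On normalised counts the ratio was 0.693 for Vps26b and 0.822 for Rab5b, which are not past the limit.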

How the results depend on the processing

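Of the 95 named members, 70 kept their direction and their side of the threshold under every alternative they were tested in and 25 did not in at least 1. The 95 leave out genes given only as values beside them. Of those, Sec61a2, Sec23ip, Sec16a, Rab22a, Rab11fip1, Rab11fip5, Vps8 and Rab27b also gained or lost a call. With the filter on means of 100 or more 69 of the 95 were tested. edgeR called 111 members and DESeq2 110, against 110 with limma. With only genes that averaged 100 or more, which left 92 members to test, 68 were called (30 higher, 38 lower), among them 16 Rab GTPases, 8 sorting nexins, 12 Vps genes, 11 Sec genes and 0 antisense RNAs. The medians were -0.08525 for Rab GTPases, -0.004581 for Rab regulators and effectors, 0.82 for coatomer, -0.93 for Sec and -1.21 for the p24 family with Rer1. The share of all genes called was not counted under this filter. With mitochondrial genes left out the medians were 0.18 for Rab GTPases, 0.27 for Rab regulators, 0.19 for sorting nexins, 0.21 for Vps, -0.11 for Arf and 0.66 for coatomer. With the length trend removed they were -0.091 for Rab regulators, -0.051 for Arf and 0.68 for coatomer. Leaving out 1 library gave 100 to 114 members called and a median from -0.83 (without young replicate 2) to -0.46 for the p24 family with Rer1. The median of Rab GTPases then ran from -0.048 (without young replicate 1) to 0.098 (without young replicate 4). The sign changed with the length trend removed in Arf6 (0.066), Copg1 (-0.11), Rab21 (-0.087), Rab35 (0.072), Snx17 (0.048), Sec63 (-0.15) and Vps13d (-0.19), and with mitochondrial genes left out in Rab35 (0.066). With single libraries left out the values ran from -0.025 (without old replicate 2) to 0.17 in Copg1, from -0.031 (without old replicate 3) to 0.047 in Rab21, from -0.16 to 0.018 (without young replicate 4) in Rab35 and from -0.026 (without old replicate 1) to 0.058 in Tmed10. Of these genes only Vps13d was called. The causes were not tested. No paired analysis was run, since the labels pair no young library with an old one. Members with few counts, such as Rab15 and Snx20, had an SE over 0.4, and how much of it is counting error was not tested.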
